A study of Mus musculus with 2 samples.

Results

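A set of 10 genes of the TGF-beta superfamily and its signalling route were followed: the ligand genes Tgfb1, Inhba, Gdf3 and Gdf15, the receptor genes Acvr1b, Tgfbr1 and Tgfbr2, the signal transducer gene Smad3, and the brake genes Smad7 and Skil. They are the 10 features, of 47730 in the deposited matrices, whose symbol equals one of these names, and each is annotated as protein-coding. The cells came from tumours and were sorted as live and CD45+, the marker of blood-derived cells. The E2 library came from C57BL6\J mice that had been ovariectomised and given E2, the usual short name of estradiol. The placebo library came from mice of the same strain that had been ovariectomised and given placebo. Each group was 1 library of droplet single-cell RNA sequencing. The number of mice behind each library, the tumour and the dose and duration of E2 are not stated in the labels.

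Ligands of this superfamily bind a pair of type I and type II receptor kinases, which phosphorylate SMAD proteins that then enter the nucleus and act on transcription. TGF-beta, activins and some GDFs use SMAD2 and SMAD3, whereas most BMPs use another set of SMADs. Smad7 and Skil are switched on by the signal and hold it back. In tumours the route is best known for restraining lymphocytes and for its part in the behaviour of macrophages and neutrophils.

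Promoter sequence is shown for the 3 ligand genes for which it was at hand. The reasons were that ligand genes held the largest differences within the set followed, and that E2 acts through receptors that bind DNA. Pathway genes outside the set are not part of that comparison. Each run gives the 250 bases before the annotated start, written 5′ to 3′ on the gene's own strand, from RefSeq on GRCm38.p6, with the motifs found in capitals. Inhba is on the plus strand of chromosome 13 and its run covers chr13:16011601-16011850. Gdf15 is on the minus strand of chromosome 8 and its run covers chr8:70632457-70632706. Tgfb1 is on the plus strand of chromosome 7 and its run covers chr7:25686752-25687001.
Inhba: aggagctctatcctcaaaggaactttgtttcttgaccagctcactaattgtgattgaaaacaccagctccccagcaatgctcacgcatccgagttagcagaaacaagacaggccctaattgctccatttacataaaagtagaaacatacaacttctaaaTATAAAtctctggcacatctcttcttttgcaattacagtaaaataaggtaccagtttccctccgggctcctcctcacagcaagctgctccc
Gdf15: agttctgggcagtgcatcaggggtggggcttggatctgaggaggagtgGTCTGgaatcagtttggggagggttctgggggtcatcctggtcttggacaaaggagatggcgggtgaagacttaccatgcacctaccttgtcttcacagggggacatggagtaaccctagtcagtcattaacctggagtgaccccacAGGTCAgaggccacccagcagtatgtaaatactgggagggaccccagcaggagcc
Tgfb1: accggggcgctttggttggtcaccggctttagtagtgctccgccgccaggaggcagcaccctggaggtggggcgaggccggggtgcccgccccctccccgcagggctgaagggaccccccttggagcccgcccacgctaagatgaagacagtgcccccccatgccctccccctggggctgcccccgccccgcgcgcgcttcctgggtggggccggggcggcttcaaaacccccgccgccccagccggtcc

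The motifs searched on both strands were the SMAD box CAGAC, the AP-1 site TGANTCA, the palindromic estrogen response element, its half-site AGGTCA, the hypoxia response core ACGTG and the TATA box TATAAA. The Inhba run held the TATA box, 91 to 86 bases before the start. The Gdf15 run held the SMAD box on its other strand, 202 to 198 bases before the start, and the half-site, 55 to 50 bases before it. The Tgfb1 run held none of them. Over 32851 promoters of the same length, 12.4% held the TATA box, 42.2% the SMAD box, 14.0% the half-site and 0.0639% the full estrogen response element, so a match to any of the first 3 is common. A half-site can overlap a full element, and no full element was in these 3 windows. A match is a description of letters, not of binding.

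The E2 library held 5791 barcodes and 52628133 unique molecular identifiers (UMIs, each standing for 1 captured RNA molecule), and the placebo library 3505 barcodes and 24545595 UMIs. After filtering, 5499 and 3393 cells were kept, and 95 barcodes occurred in both libraries. Leaving those 95 out moved none of 37 ratios of the 10 genes by more than counting error, and the ratios of other pathway genes were not recomputed without them. Cells were put in classes by marker genes and are therefore called X-like; 5.64% of the E2 cells and 9.37% of the placebo cells fell in no class. Levels are in CPM, the UMIs of the gene scaled to the summed UMIs of all genes in the class. Ratios are E2 over placebo, with exact 95% intervals for the error of counting alone. The spread between mice cannot be seen with a single library in each group, and the values below are therefore given with no test and no p-value. Orders of levels are over the 17 classes, none inside another, that had at least 30 cells in each library, unless another class is named.

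In monocyte/macrophage-like cells (2307 E2 and 956 placebo cells) all 10 genes had at least 20 UMIs over both libraries. On the log2(CPM + 10) scale, 2 of the 10 had an E2 level above the placebo level by at least 1.5-fold, where 0.876% of 13121 genes were, and 2 were lower, where 1.26% of genes were. Gdf3 and Gdf15 were the higher pair, and Inhba and Smad7 the lower pair. The median log2 ratio of the 10 was -0.14, and that of all genes measured was -0.03. The other 6 genes lay within 1.5-fold.

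**Figure D1:**
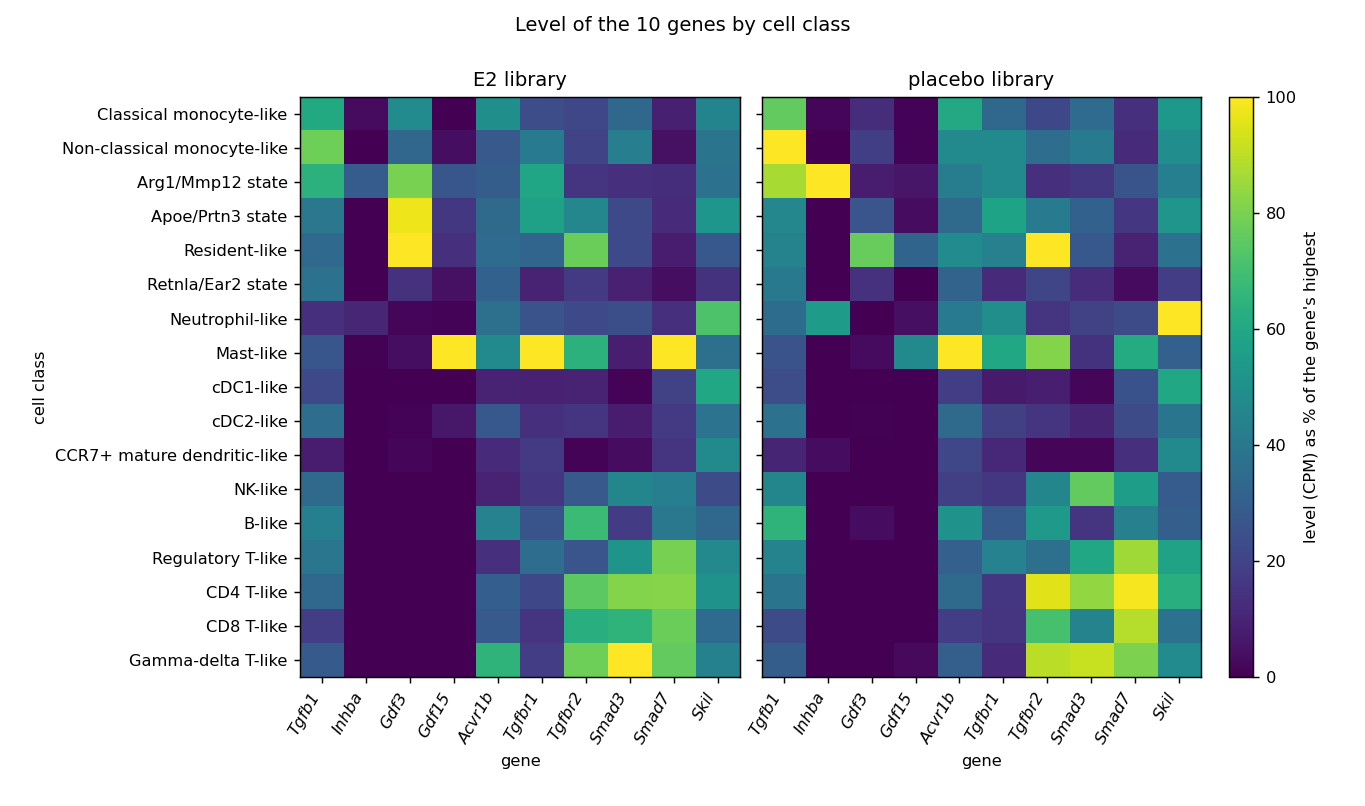
Heat map of the 10 genes (columns) in 17 cell classes (rows), E2 library on the left and placebo library on the right. Colour is the level in CPM as a percent of that gene's highest level in either library, so colours compare classes for 1 gene and not genes with each other. Inhba is brightest in the Arg1/Mmp12 row of the placebo map, at 210 CPM, followed by the neutrophil row of the same map at 115 CPM. Gdf3 colours the monocyte and macrophage rows of both maps, and Smad7 and Smad3 are brighter in the T rows than in the macrophage rows.

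Inhba encodes the subunit that forms activin A as a homodimer, and inhibin A with the alpha subunit. Activin A is made by activated macrophages and neutrophils, among other cells. In monocyte/macrophage-like cells it had 168 UMIs in the E2 library, 7.10 CPM, against 441 UMIs, 49.1 CPM, in the placebo library. The level was 6.91-fold lower in the E2 library (95% counting interval 5.78 to 8.31).

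Most of this signal lay in a single state. The Arg1/Mmp12 state, macrophages gated by Arg1, Mmp12, Cxcl3, Pdpn, Ccl24, Spp1 and Slc7a2, held 69.0% of the monocyte/macrophage Inhba UMIs in the E2 library and 93.0% in the placebo library. Its 142 E2 cells had 116 UMIs, 61.1 CPM, and its 176 placebo cells had 410 UMIs, 210 CPM. Within the state the level was therefore 3.44-fold lower in the E2 library (2.79 to 4.27), a smaller ratio than over all monocyte/macrophage-like cells. A common mix of the 6 states that had enough cells was also used for both libraries, called states weighted alike below. Its weights ran from 8.47% for the resident-like state to 35.3% for the classical monocyte state. With this mix Inhba averaged 10.1 CPM in the E2 library and 27.7 CPM in the placebo library, 2.73-fold lower. On the log2(CPM + 10) scale that is -0.90 in place of -1.79.

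The number of cells with the transcript differed as well as the total. In the Arg1/Mmp12 state 14 E2 cells (9.86%) and 48 placebo cells (27.3%) had an Inhba UMI. After every cell was thinned to 2000 UMIs the shares were 4.32% (1.60 to 9.16%) of E2 cells and 18.2% (12.7 to 24.9%) of placebo cells, and these intervals did not overlap. The median depth of the state was 12564 UMIs per cell in the E2 library and 10037.5 in the placebo library, so the library with fewer Inhba cells was the deeper one. T-like cells, which should lack the gene, had it in 0 of 847 thinned E2 cells and 1 of 1053 thinned placebo cells, at median depths of 4281 and 4569.5 UMIs.

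A few cells carried much of the E2 total. The highest E2 cell of the state held 52 Inhba UMIs, 44.8% of the state's total, and the highest placebo cell held 59, which was 14.4%. In the E2 library 2 cells had 10 or more Inhba UMIs, and in the placebo library 10 cells did. Without the highest cell of each library the levels were 34.4 CPM in the E2 library and 181 CPM in the placebo library.

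**Figure D2:**
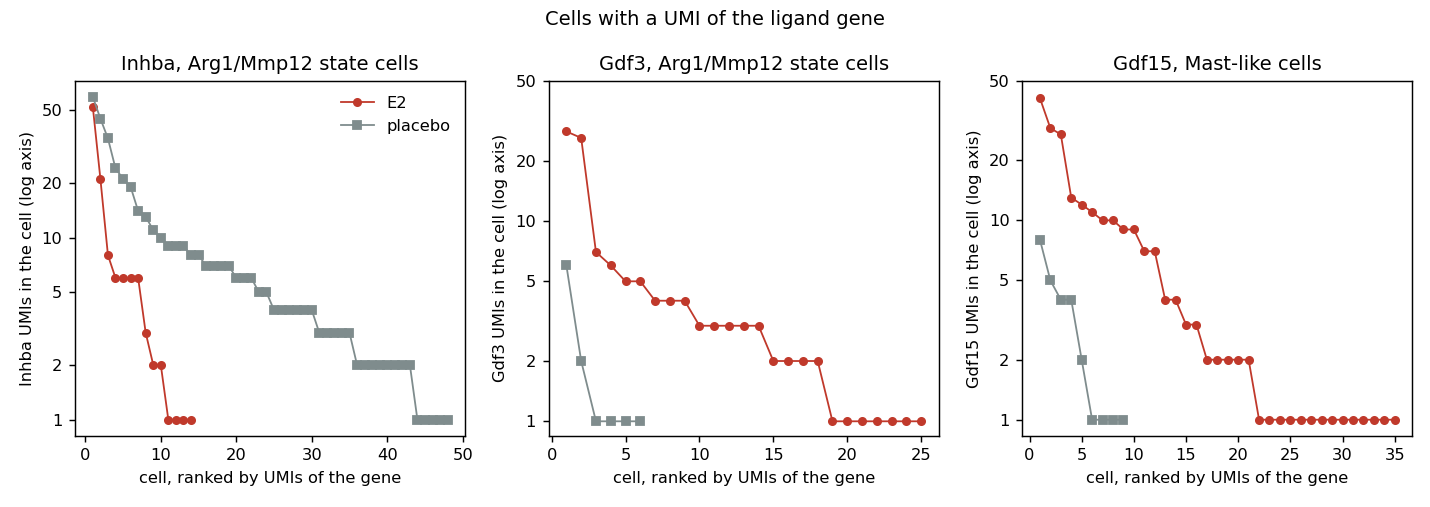
Cells that had a UMI of the gene, ranked by their number of UMIs (horizontal axis, rank; vertical axis, UMIs on a log axis), E2 in red circles and placebo in grey squares. The top Inhba cells of the Arg1/Mmp12 state hold 52 and 59 UMIs, but the placebo curve runs on to 48 cells and the E2 curve ends at 14. For Gdf3 in the same state and Gdf15 in mast-like cells the E2 curve is the longer and higher one, with 25 of 142 against 6 of 176 cells for Gdf3. For Gdf15 the counts are 35 of 227 against 9 of 60 cells, which are like shares of 15.4% and 15%.

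Across all monocyte/macrophage-like cells, 33 E2 cells and 55 placebo cells had an Inhba UMI. Of these, 13 E2 cells and 46 placebo cells also had a UMI of Arg1, the arginase gene that marks the state. Arg1 itself was found in 273 of the 2307 E2 cells and in 244 of the 956 placebo cells. Within the Arg1/Mmp12 state 8 of 14 E2 cells and 44 of 48 placebo cells with Inhba had Arg1. Among all cells of the state 83 of 142 E2 cells and 138 of 176 placebo cells had it. Gdf3 was found in 438 of the E2 cells and 60 of the placebo cells, and both genes in 4 E2 cells and 1 placebo cell. With so few cells holding Inhba a small overlap is likely, and whether the genes avoid each other was not tested. Neutrophil markers, 7 genes, summed to 150 CPM in the E2 cells and 102 CPM in the placebo cells of the Arg1/Mmp12 state, against 158516 and 102711 CPM in the neutrophil-like cells themselves, with Retnlg at 0 in the placebo cells of the state.

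Outside that state Inhba was low among mononuclear phagocytes. Classical monocyte-like cells had 45 E2 UMIs and 8 placebo UMIs, 6.03 and 2.54 CPM, which is the opposite direction, with a ratio of 2.37 (1.11 to 5.83) and within 1.5-fold on the log2(CPM + 10) scale. Under the stricter gates that difference was gone, at 6.58 CPM in the E2 library and 6.94 CPM in the placebo library. The Retnla/Ear2 state had 0 UMIs in both libraries, which allows up to 1.05 CPM in the E2 library and 2.56 CPM in the placebo library. The CCR7+ mature dendritic-like cells had 0 E2 UMIs and 7 placebo UMIs, of which 5 were in 1 cell. All 27 Inhba UMIs of the E2 basophil-like class were in 1 of its 28 cells, and all 21 of the placebo interferon-high state in 1 of its 17 cells. In the few fibroblast-like cells that passed the sort, 70 E2 and 19 placebo cells, Inhba had 28 and 5 UMIs, 32.6 CPM (21.7 to 47.2) in 11 E2 cells and 18.2 CPM (5.92 to 42.6) in 4 placebo cells.

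Among the classes of at least 30 cells in each library, neutrophil-like cells had the next Inhba level after the Arg1/Mmp12 state. The 543 E2 cells had 42 UMIs, 22.6 CPM, and the 245 placebo cells had 69 UMIs, 115 CPM. The level was 5.09-fold lower in the E2 library (3.42 to 7.66). The transcript was found in 24 E2 cells and 19 placebo cells, after thinning in 3.39% and 6.56% of cells with overlapping intervals (1.98 to 5.37% and 3.43 to 11.2%). In the placebo library 17 of the 69 UMIs were in 1 cell, and without the top cell of each library the levels were 20.04 CPM in the E2 library and 87.4 CPM in the placebo library. The Arg1/Mmp12 state was first and neutrophil-like cells second in the order of Inhba levels in both libraries, with counting intervals that did not overlap (50.5 to 73.3 and 16.3 to 30.6 CPM in the E2 library, 191 to 232 and 89.7 to 146 CPM in the placebo library).

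Gdf3, a ligand of the nodal branch that in mice is also made by macrophages of adipose tissue, differed in the other direction. In monocyte/macrophage-like cells it had 1232 UMIs in the E2 library, 52.1 CPM, and 119 UMIs in the placebo library, 13.2 CPM. The level was 3.93-fold higher in the E2 library (3.25 to 4.79), and 2.98-fold higher with the same mix of states in both libraries. A Gdf3 UMI was found in 438 E2 cells (19.0%) and 60 placebo cells (6.28%), and after thinning in 7.36% (6.30 to 8.53%) and 2.35% (1.46 to 3.57%) of cells. T-like cells had none in 847 thinned E2 cells and none in 1053 thinned placebo cells, which allows shares of up to 0.354% and 0.285%. Of all Gdf3 UMIs in kept cells, 98.8% in the E2 library and 96.0% in the placebo library were in monocyte/macrophage-like cells.

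The size of the Gdf3 difference varied among the states that had at least 30 cells in each library. It was widest in the Arg1/Mmp12 state, with 119 UMIs and 62.7 CPM in E2 cells against 12 UMIs and 6.16 CPM in placebo cells, a 10.2-fold higher level (5.62 to 20.3). In that state 2 E2 cells held 28 and 26 of the 119 UMIs. In the Apoe/Prtn3 state the levels were 76.4 and 20.8 CPM, 3.67-fold higher in the E2 library (2.56 to 5.47). In classical monocyte-like cells they were 37.9 and 10.2 CPM, 3.73-fold higher (2.58 to 5.56), though within 1.5-fold with 50 CPM added.

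In the other states the counting intervals of the ratio included 1. Resident-like macrophages, gated by Pf4, Ccl8, Folr2, Cbr2, Fcrls, Gas6 and Lyve1, had 78.4 CPM in the E2 library and 60.3 CPM in the placebo library, a ratio of 1.30 (0.801 to 2.24). The placebo value there came from 18 UMIs in 5 of 52 cells, 12 of them in a single cell, and without the top cell of each library the levels were 73.4 and 21.1 CPM. The log2(CPM + 10) ratio was then 1.42 in place of 0.33, so the small resident-like difference rests on 1 placebo cell. Non-classical monocyte-like cells had 25.9 and 14.5 CPM (ratio 1.79, 0.878 to 4.01), and the Retnla/Ear2 state 11.5 and 11.1 CPM (ratio 1.04, 0.531 to 2.14). In both libraries the resident-like state had the highest Gdf3 level; in the E2 library its interval overlapped those of the Apoe/Prtn3 and Arg1/Mmp12 states, and in the placebo library it overlapped neither. That placebo order rests on the same cell, since without it the resident-like level of 21.1 CPM lay beside 20.8 CPM in the Apoe/Prtn3 state.

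**Figure D3:**
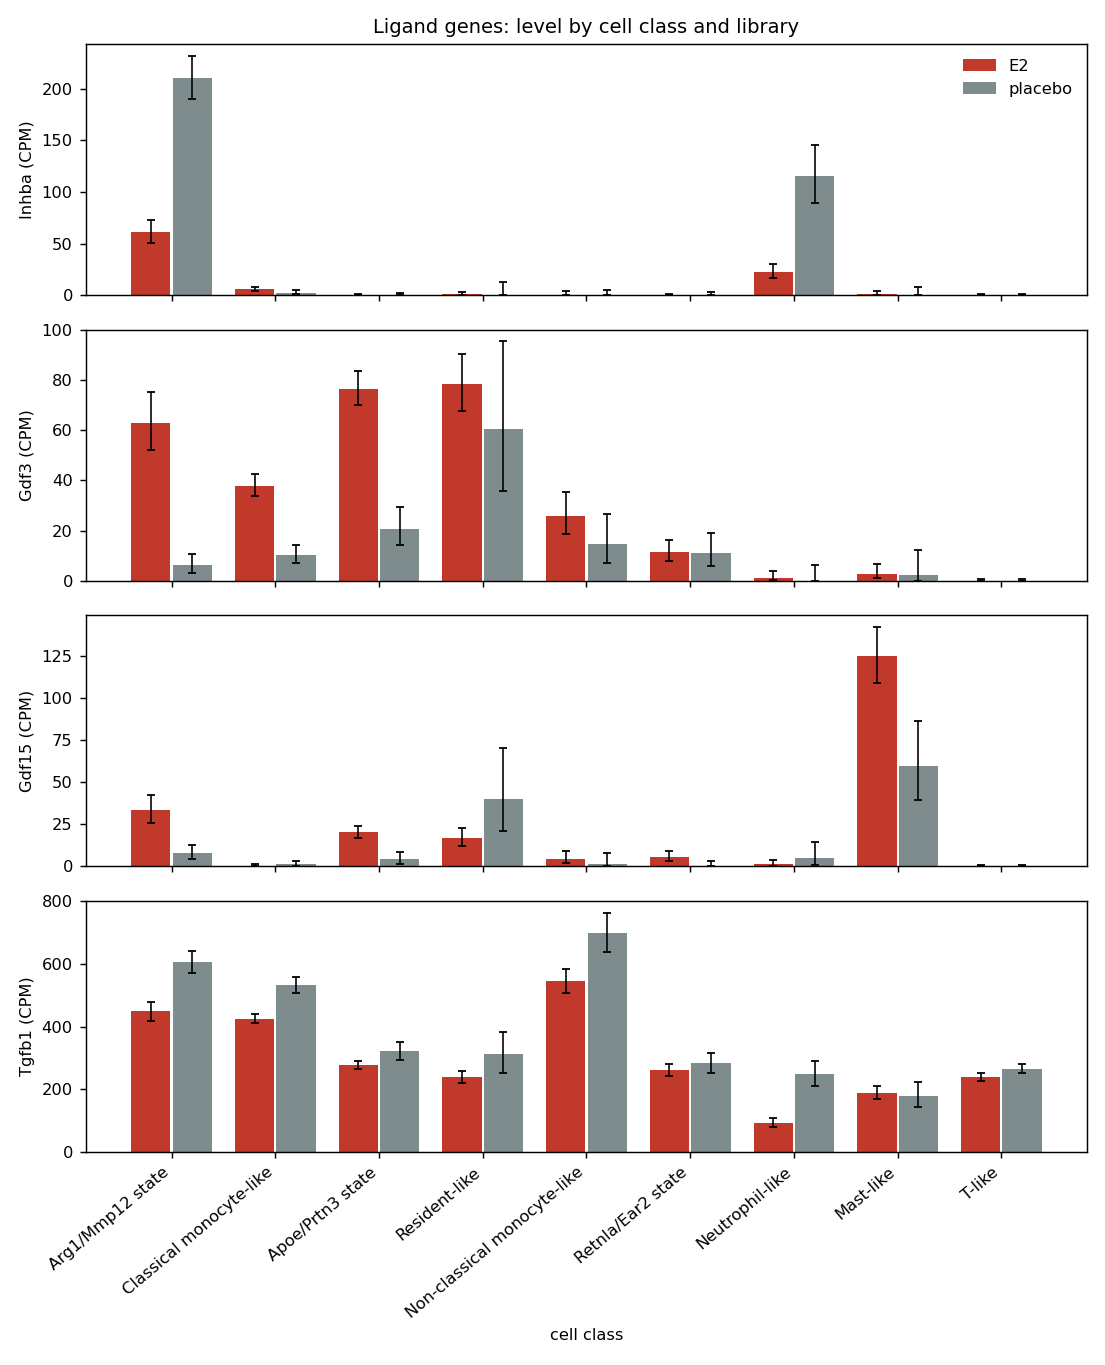
Levels of the 4 ligand genes (vertical axes, CPM, each with its own scale from 0) in 9 cell classes, E2 bars in red left of placebo bars in grey. Black lines are exact 95% Poisson intervals of the summed UMIs, which cover counting error only. Inhba stands out in the Arg1/Mmp12 state (61.1 and 210 CPM) and neutrophil-like cells (22.6 and 115 CPM), Gdf3 in the macrophage states of the E2 library, Gdf15 in mast-like cells (125 and 59.4 CPM), and Tgfb1 is present in every class.

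Gdf15, a stress-induced cytokine whose receptor Gfral is known from the hindbrain, was mainly a transcript of mast-like cells and of some macrophages. The 227 mast-like E2 cells had 223 UMIs, 125 CPM, and the 60 placebo cells had 27 UMIs, 59.4 CPM, a 2.10-fold higher level in the E2 library (1.40 to 3.25). The share of mast-like cells with a Gdf15 UMI was 15.4% in the E2 library and 15% in the placebo library, so the E2 library had more UMIs per cell with the transcript rather than a larger unthinned share; thinned, the shares were 8.29% (4.81 to 13.1%) and 4% (0.488 to 13.7%). Without the top cell of each library the levels were 102 CPM in the E2 library and 42.5 CPM in the placebo library. Under the stricter gates too few Gdf15 UMIs were left to compare the libraries. The stricter rule leaves out cells that also pass the gate of another lineage. It kept 50 E2 and 16 placebo mast-like cells with 4 and 1 Gdf15 UMIs, 31.9 and 32.3 CPM, under the minimum of 20 UMIs. Basophil markers were near their own class's level in mast-like cells, 4619 and 4448 CPM against 5152 and 4673 CPM in basophil-like cells, since mast cells share Ms4a2, Fcer1a and Gata2 with basophils.

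In monocyte/macrophage-like cells Gdf15 had 272 UMIs in the E2 library, 11.5 CPM, and 38 in the placebo library, 4.23 CPM, 2.72-fold higher (1.93 to 3.92). It was higher in the Arg1/Mmp12 state, with 33.2 CPM in E2 cells and 7.70 CPM in placebo cells (ratio 4.31, 2.43 to 8.16). It was also higher in the Apoe/Prtn3 state, with 20.2 and 4.02 CPM (ratio 5.01, 2.24 to 13.9). Both were within 1.5-fold with 50 CPM added. Resident-like cells had 17.0 CPM in the E2 library and 40.2 CPM in the placebo library, 2.37-fold lower (1.13 to 4.58), from 42 and 12 UMIs. Gdf15 was found in few cells throughout, 68 E2 and 21 placebo monocyte/macrophage-like cells, and after thinning in 1.32% (0.884 to 1.89%) and 0.895% (0.387 to 1.76%), with overlapping intervals. On thinned counts the log2(CPM + 10) ratio was 0.31 over all monocyte/macrophage-like cells and 0.35 in the Arg1/Mmp12 state, both within 1.5-fold, and it was 0.45 with states weighted alike. In cDC2-like cells 32 of the 48 E2 UMIs were in a single cell, and the placebo cells had 1 UMI.

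Tgfb1, the gene of the main TGF-beta ligand of immune cells, was read in every class. Its level was highest in non-classical monocyte-like cells, 545 CPM in the E2 library and 698 CPM in the placebo library, then in the Arg1/Mmp12 state, 449 and 606 CPM, and in classical monocyte-like cells, 425 and 531 CPM. In the E2 library the intervals of the last pair overlapped, and in the placebo library they did not. It was lowest in CCR7+ mature dendritic-like cells, 52.9 and 72.5 CPM. Among the 17 classes Tgfb1 was lower in the E2 library in 16, and in 9 of them the interval of the ratio lay below 1; mast-like cells were the exception, with 188 and 178 CPM.

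In all but 1 of those 17 classes the Tgfb1 difference was under 1.5-fold on the log2(CPM + 10) scale. Over all monocyte/macrophage-like cells it had 350 CPM in the E2 library and 485 CPM in the placebo library, 1.39-fold lower (1.34 to 1.44). Neutrophil-like cells were the exception, with 172 UMIs and 92.8 CPM in the E2 library against 148 UMIs and 247 CPM in the placebo library, 2.67-fold lower (2.13 to 3.34).

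Neutrophil-like cells had 8 of the 10 genes at or above 20 UMIs. None was higher by 1.5-fold, where 11.6% of 5992 genes were, and 4 were lower, where 12.1% were: Inhba, Tgfb1, Tgfbr1 and Smad7. The background shows that many genes differed by this much between these 2 sets of cells, whose median depths were 3115 UMIs in the E2 library and 2408 in the placebo library. Tgfbr1 had 63.1 and 122 CPM, 1.93-fold lower in the E2 library (1.42 to 2.61), and Smad7 had 63.6 and 109 CPM, 1.71-fold lower (1.24 to 2.33). The Smad7 difference was within 1.5-fold when doublets were kept and with 50 CPM added. Skil, highest in neutrophil-like cells of all classes in both libraries, had 368 and 510 CPM, and Tgfbr2 59.3 and 41.8 CPM with an interval of the ratio that included 1 (0.913 to 2.29).

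The neutrophil values were also taken on either side of the median of Retnlg, a gene that separates neutrophil states, since the libraries differed in this mix, with 302 of 543 E2 cells and 92 of 245 placebo cells at or above it. At or above the median Inhba had 22.6 CPM in E2 cells and 133 CPM in placebo cells, and below it 22.7 and 103 CPM. Tgfb1 had 56.5 and 182 CPM at or above the median, and 152 and 294 CPM below it. Smad7 was 2.23-fold lower in the E2 library at or above the median (1.33 to 3.67), and 1.22-fold lower below it with an interval that included 1 (0.799 to 1.83). Monocyte/macrophage markers summed to 1847 CPM in E2 neutrophil-like cells and 1151 CPM in placebo ones, higher in the E2 cells for 8 of the 12 markers, and their part in these values was not tested.

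Among the receptor genes, Tgfbr2, the type II receptor that binds TGF-beta, and Tgfbr1, its type I partner, differed between classes far more than between libraries. In the E2 library Tgfbr2 was highest in fibroblast-like cells (325 CPM), then gamma-delta T-like (209 CPM), resident-like (208 CPM) and CD4 T-like cells (200 CPM), and the last 3 had overlapping intervals. In the placebo library the resident-like state (268 CPM), CD4 T-like (256 CPM) and gamma-delta T-like cells (240 CPM) led, again with overlapping intervals. CCR7+ mature dendritic-like cells had almost none, 4 UMIs in each library, 2.58 CPM in E2 cells and 3.76 CPM in placebo cells. Of the T subsets, regulatory T-like cells had the lowest Tgfbr2 level, 71.1 CPM in the E2 library and 98.8 CPM in the placebo library, 1.39-fold lower in the E2 library (1.13 to 1.70).

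Between libraries Tgfbr2 was 1.30-fold lower in E2 T-like cells (134 and 173 CPM, 1.17 to 1.43) and 1.23-fold higher in E2 monocyte/macrophage-like cells (88.7 and 71.9 CPM, 1.13 to 1.35). With the macrophage states weighted alike that second difference was gone, at 83.6 CPM in the E2 library and 90.1 CPM in the placebo library. It passed 1.5-fold in non-classical monocyte-like cells, with 55.1 and 95.8 CPM, 1.74-fold lower (1.24 to 2.43), where 6.59% of genes were lower by as much. It did so too in NK-like cells, with 74.4 and 123 CPM, 1.65-fold lower (1.08 to 2.49), where 12.2% were.

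Tgfbr1 was highest in mast-like cells, 247 CPM in the E2 library and 147 CPM in the placebo library, and lowest in cDC1-like cells, 22.3 and 17.9 CPM. The mast-like difference was 1.67-fold (1.29 to 2.20) and was as large under the stricter gates, 271 and 162 CPM, though from 34 and 5 UMIs. In the E2 library the next class, the Arg1/Mmp12 state at 145 CPM, did not reach the mast-like interval; in the placebo library the Apoe/Prtn3 state at 143 CPM did. Acvr1b, the type I receptor of activin, was read at a low level everywhere. In mast-like cells it had 22.9 CPM in the E2 library and 48.4 CPM in the placebo library, 2.11-fold lower (1.20 to 3.63) from 41 and 22 UMIs and within 1.5-fold with 50 CPM added, and in monocyte/macrophage-like cells 18.2 and 22.7 CPM.

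**Figure D4:**
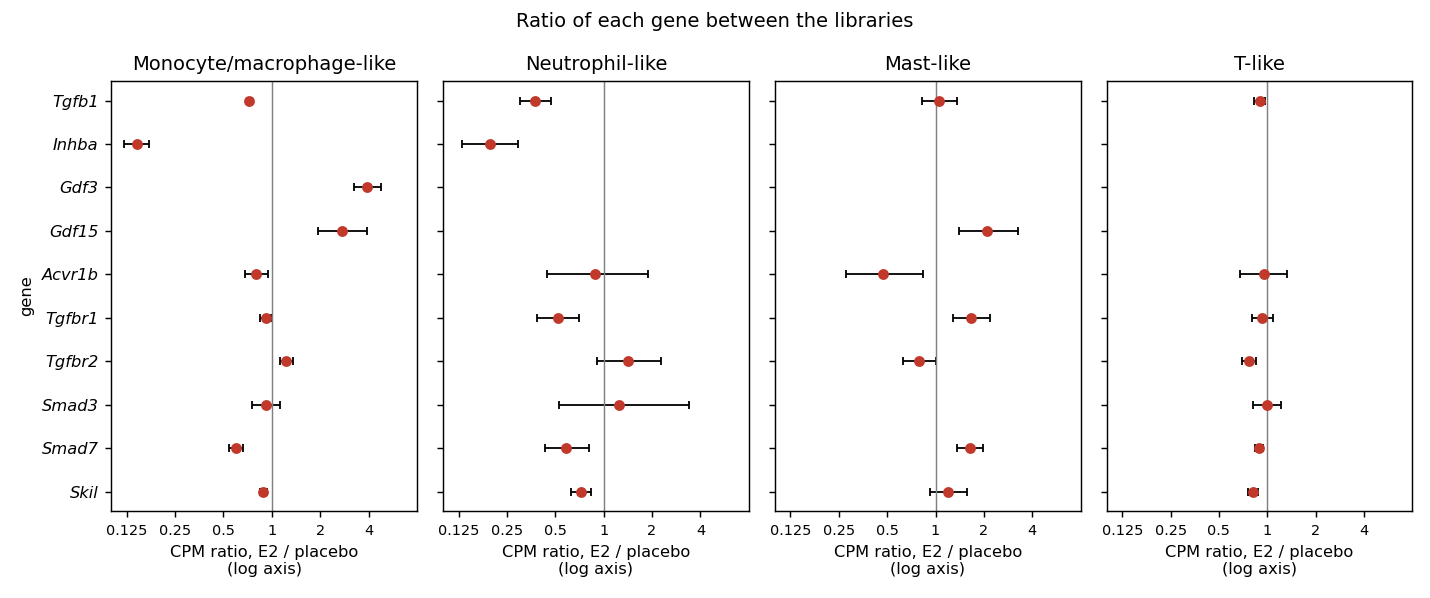
Ratio of the CPM in the E2 library to that in the placebo library (horizontal axis, log axis) for each of the 10 genes in 4 cell classes; points are ratios and black lines exact 95% counting intervals, and genes with under 20 UMIs over both libraries are left out. Monocyte/macrophage-like cells spread most, with Inhba at 0.145 and Gdf3 at 3.93; the 7 points of T-like cells lie between 0.772 and 0.994.

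Smad3, which carries the TGF-beta and activin signal to the nucleus, was highest in gamma-delta T-like cells, 60.7 CPM in the E2 library and 55.6 CPM in the placebo library, followed by CD4 T-like cells, 49.5 and 50.8 CPM, with overlapping intervals. It was almost absent from cDC1-like cells, 0.563 and 0.893 CPM from 3 and 1 UMIs. In none of the 13 classes in which it had at least 20 UMIs did it pass 1.5-fold, and none of its ratio intervals excluded 1.

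Smad7, the inhibitory SMAD that blocks the receptors and is a direct target of the route, was high in T-like and mast-like cells and low in macrophages. CD4 T-like cells had 384 CPM in the E2 library and 463 CPM in the placebo library, against 42.7 and 71.1 CPM in monocyte/macrophage-like cells. The macrophage level was 1.67-fold lower in the E2 library (1.51 to 1.84), and 1.54-fold lower with states weighted alike, at 43.4 and 67.0 CPM. On the log2(CPM + 10) scale this is -0.62 as gated, and -0.53 with states weighted alike, -0.55 under stricter gates and -0.57 in Leiden clusters, the last 3 within 1.5-fold. It was lower in the Arg1/Mmp12 state, with 61.1 CPM in E2 cells and 123 CPM in placebo cells (2.01-fold, 1.60 to 2.53), though within 1.5-fold in Leiden clusters at 82.3 and 112 CPM, and in non-classical monocyte-like cells, with 21.4 and 55.2 CPM (2.58-fold, 1.57 to 4.24). The Retnla/Ear2 state had the lowest level, 17.1 and 13.7 CPM. In mast-like cells it was the other way round, 469 CPM in the E2 library and 288 CPM in the placebo library, 1.63-fold higher (1.35 to 1.97), but under the stricter gates 343 CPM in the E2 library and 452 CPM in the placebo library, from 43 and 14 UMIs. The log2(CPM + 10) ratio of Smad7 in mast-like cells was 0.68 as gated, and 0.48 by the mean of per-cell shares and 0.46 on thinned counts, both within 1.5-fold.

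Skil encodes SnoN, which binds SMADs on DNA and silences their targets. In monocyte/macrophage-like cells it had 206 CPM in the E2 library and 232 CPM in the placebo library, and in T-like cells 233 and 286 CPM. In none of the 17 classes did it differ by 1.5-fold, and the widest log2(CPM + 10) ratio was that of neutrophil-like cells, -0.46.

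In the Arg1/Mmp12 state the 10 genes all had at least 20 UMIs. Gdf3 and Gdf15 were higher by 1.5-fold, where 2.81% of 9107 genes were, and Inhba and Smad7 were lower, where 5.63% were. The Gdf15 and Smad7 calls of this state do not hold under every alternative, Gdf15 being within 1.5-fold on thinned counts and with 50 CPM added, and Smad7 in Leiden clusters. The Apoe/Prtn3 state had 9 genes measured with Gdf3 and Gdf15 higher, where 2.84% were, and none lower, where 2.8% were. Classical monocyte-like cells had 9 measured with Gdf3 higher, where 0.773% were, and none lower, where 1.32% were.

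In the other classes few of the 10 genes passed 1.5-fold. Tgfbr2 was the 1 gene lower in NK-like cells of 6 measured, where 12.2% of genes were, and none was higher, where 9.28% were. Gdf15 was the 1 gene higher in cDC2-like cells, where 1.1% were, and none was lower, where 2.41% were. Of 8 measured in non-classical monocyte-like cells, Smad7 and Tgfbr2 were lower, where 6.59% were, and none was higher, where 3.72% were. In the resident-like state Gdf15 was lower, where 13.2% were, and none was higher, where 11.1% were. No gene passed in B-like cells (7.14% of genes higher and 25.5% lower), cDC1-like cells (2.29% and 4.05%), CCR7+ mature dendritic-like cells (2.61% and 5.29%) or the Retnla/Ear2 state (3.08% and 3.92%).

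Mast-like cells had 7 of the 10 genes measured. Gdf15, Tgfbr1 and Smad7 were higher by 1.5-fold, where 7.56% of 8123 genes were, and Acvr1b was lower, where 6.6% were. T-like cells, 886 in the E2 library and 1082 in the placebo library, also had 7 measured and none past 1.5-fold, where 0.499% of 11615 genes were higher and 0.542% lower. All 7 T-cell ratios were below 1, and those of Tgfb1 (0.898), Tgfbr2 (0.772), Smad7 (0.888) and Skil (0.812) had intervals below 1. The median of the 7 was -0.15 and that of all genes in T-like cells -0.07 on the log2(CPM + 10) scale. Among the T subsets no gene passed 1.5-fold, where 1.26% of genes were higher and 2.5% lower in regulatory T-like, 6.44% and 13.4% in gamma-delta T-like, 2.68% and 7.73% in CD8 T-like and 2.93% and 5.06% in CD4 T-like cells; the largest difference with enough UMIs was Acvr1b in regulatory T-like cells, 6.75 CPM in the E2 library and 14.8 CPM in the placebo library from 15 and 39 UMIs.

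Other genes of the pathway were counted from lists of ligands, of latency factors and inhibitors, of receptors, of SMADs and their regulators and of target genes. In monocyte/macrophage-like cells 5 of 14 other ligand genes were measured and none passed 1.5-fold. Lefty1, an inhibitor of nodal signalling, had 3.34 CPM in the E2 library and 2.004 CPM in the placebo library, with an interval of the ratio that included 1 (0.989 to 2.96). Tgfb3, another TGF-beta ligand, had 30 UMIs in the E2 library and 2 in the placebo library, a CPM ratio of 5.70 (1.45 to 49.2) at levels of 1.27 and 0.223 CPM. Of 18 latency and inhibitor genes 8 were measured and none passed; Thbs1, the thrombospondin that activates latent TGF-beta, had 1619 and 1217 CPM, and Ltbp3, which anchors the latent complex, 6.30 and 10.8 CPM. The pooled Thbs1 value held states past 1.5-fold in opposite directions, beside the Apoe/Prtn3 state within it (1243 and 1097 CPM). Thbs1 was lower in the Arg1/Mmp12 state of the E2 library, with 1271 CPM in E2 cells and 2376 CPM in placebo cells. It was higher in E2 classical monocyte-like cells (3041 and 1190 CPM), non-classical monocyte-like cells (1385 and 640.3 CPM), resident-like cells (381 and 56.9 CPM) and the Retnla/Ear2 state (221 and 132 CPM).

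Of 10 other receptor genes 7 were measured, and Tgfbr3, the co-receptor betaglycan, was higher in the E2 library, with 217 UMIs and 9.17 CPM against 18 UMIs and 2.004 CPM (ratio 4.58, 2.83 to 7.87). Most of these UMIs were in monocyte-like cells. Classical monocyte-like cells held 107 E2 and 3 placebo UMIs, and non-classical ones 78 and 12. All 14 measured SMADs and regulators of 15 lay within 1.5-fold, with Smurf2, a ubiquitin ligase that degrades receptors and SMADs, at 24.2 and 34.3 CPM. Of 14 listed target gene names 13 were in the matrices, and 11 were measured. Id3 was higher, at 96.3 CPM in the E2 library and 58.3 CPM in the placebo library, and Smad7, which is also on this list, was lower. Of all genes measured in monocyte/macrophage-like cells, 0.876% were higher by 1.5-fold and 1.26% lower. Id2 and Id1, which like Id3 block basic helix-loop-helix factors and answer to BMPs, had 156 and 237 CPM and 14.6 and 25.5 CPM, and the matrix protein gene Tgfbi 1131 and 1602 CPM, all within 1.5-fold on the log2(CPM + 10) scale. By state, Id2 was higher in the E2 library in the Apoe/Prtn3 state (119 and 87.9 CPM). It was lower in the Arg1/Mmp12 state (358 and 506 CPM) and in resident-like cells (127 and 181 CPM). The 11 target genes had a median log2 ratio of -0.21, against -0.03 for all genes.

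Of the latency and inhibitor list, 5 genes were measured in neutrophil-like cells, and 3 of them had a higher level in the E2 library and none a lower one. Thbs1 had 4162 and 2104 CPM, Bambi, a decoy receptor, 46.9 and 15.04 CPM, and Itgav, an integrin chain that activates latent TGF-beta, 34.0 and 16.7 CPM from 63 and 10 UMIs. Of 8 SMADs and regulators 2 were lower, Tgif1, a SMAD corepressor, with 185 and 338 CPM, and Smad2 with 18.3 and 33.4 CPM. The Smad2 values came from 34 and 20 UMIs, with an interval of the ratio that included 1 (0.307 to 1.006). Of 7 target genes 2 were lower, Id2 with 142 and 276 CPM, and Smad7. Shares of 11.6% and 12.1% of all genes stand beside these counts.

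In mast-like cells Bmp2, a BMP ligand, had 101 UMIs in 35 E2 cells and 0 UMIs in the 60 placebo cells, where a count of 0 allows up to 6.60 CPM against 56.4 CPM in the E2 library. Of 6 measured target genes 2 were higher, Smad7 and the cell cycle inhibitor gene Cdkn1a (981 and 539 CPM). Tgfbi was lower (11.2 and 44.0 CPM), from 20 UMIs in each library, in 8 E2 cells and 3 placebo cells. Bmpr2 was lower among other receptors (125 and 198 CPM). Of 9 SMADs and regulators Trim33 (44.7 and 74.8 CPM) and Smad5 (41.3 and 68.2 CPM) were lower. Among latency genes Thbs1 was higher (16.2 and 4.40 CPM), from 29 and 2 UMIs, with an interval of the ratio that included 1 (0.931 to 31.8). Of all genes 7.56% were higher and 6.6% lower. Apart from Smad7, no values under stricter gates are given for these genes. In regulatory T-like cells 2 of 7 measured latency and inhibitor genes were lower, where 2.5% of 9941 genes were: Furin, the protease that cuts pro-TGF-beta, with 118 CPM in the E2 library and 193 CPM in the placebo library, and Itgav, with 183 and 290 CPM. Lrrc32, which holds latent TGF-beta on the surface of regulatory T cells, had 83.7 and 113 CPM, and Itgb8, the integrin chain that frees it there, 80.6 and 117 CPM, both within 1.5-fold.

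The genes whose levels followed Inhba, Gdf3 and Gdf15 most closely were ranked by Pearson's r of log2(CPM + 10) over 39 class-by-library profiles, among 10458 genes. Profiles of 1 library share its depth, and the values are a description only. Inhba was most like Il1a (r = 0.80), Edn1 (0.77), Olr1 (0.76), Alas1 (0.73) and Gclm (0.72), which code for the cytokine interleukin-1 alpha, endothelin-1, a scavenger receptor for oxidised LDL and enzymes of heme and glutathione synthesis. Gdf3 was most like F13a1 (0.87), Msr1 (0.86), Fam213b (0.86), Tlr8 (0.86) and Cd300lh (0.85), among them coagulation factor XIII A and a macrophage scavenger receptor. Gdf15 was most like Syngr1 (0.92), Ccl7 (0.87), Plau (0.86), Mitf (0.86) and Slc6a8 (0.83), including a monocyte chemokine, the urokinase protease and a transcription factor of mast cells. The rank correlations were lower for several, with 0.39 for Inhba and Il1a, 0.51 for Gdf15 and Syngr1 and 0.53 for Gdf15 and Slc6a8.

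By position, Inhba lies at chr13:16011851-16031621 on the plus strand, Gdf3 at chr6:122605403-122610087 on the minus strand, Gdf15 at chr8:70629393-70632456 on the minus strand and Tgfb1 at chr7:25687002-25705077 on the plus strand (GENCODE M21, GRCm38). The annotation has B230303A05Rik and Gm48444 on the strand opposite Inhba, Gm48444 at its 3′ end, where this assay reads. Cell Ranger by default counts reads on the strand of the gene, and the labels do not state the setting used.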

How the data were processed

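The authors deposited raw UMI counts for each gene in each cell barcode, not normalized. Cell Ranger 3.1.0 and the mm10 build are named in the submitters' processing notes, and the headers of the matrix files name that version too. The filtered barcodes were chosen by the authors. The 10 genes, the marker panels and the pathway lists were chosen with earlier results of these data known. The libraries are not replicates of one another.

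From the counts, barcodes under 200 genes were left out (26 E2 and 15 placebo), and the barcodes with the highest Scrublet scores at 0.8% per 1000 barcodes (266 and 97) were removed as doublets with scanpy 1.11.5. A cell entered the lineage for which at least 3 panel genes were detected (4 for ILC2, with under 3 T genes), the highest panel score deciding where several passed, as for 1258 E2 and 421 placebo cells. Monocyte/macrophage-like cells went to the state with the highest standardized score, with at least 2 markers detected (4 for the interferon-high state); 8.93% of E2 and 7.11% of placebo cells lay near a boundary between states. T-like cells were split by Foxp3, Trdc, Cd8 and Cd4 detection.

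UMIs were summed per class and library and given as CPM. The log2 ratio of E2 to placebo, with 10 CPM added to both levels, understates the differences of low genes. It was used beside the CPM ratio with an exact conditional-binomial 95% interval. A gene was past the fold at 1.5-fold on the log2 scale given a summed 20 UMIs or more in the pair of libraries, for classes of at least 30 cells per library. Shares carry exact Clopper-Pearson 95% intervals, levels exact Poisson ones, and a count of 0 is given the level of 3 counts. UMIs of 1 cell are not independent, so the intervals are too narrow for genes held by few cells. The interval code was tested on simulated data. All 10 genes are named in every class; up to 5 genes of each list with the largest log2 ratio and at least 20 UMIs could be named, and the 5 genes most like Inhba, Gdf3 and Gdf15 (at least 200 UMIs, gate markers left out). Leiden clusters (leidenalg 0.10.2, resolution 1, 2000 variable genes, 30 components, 15 neighbours) were an alternative to the gates. Numpy 2.4.6, scipy 1.17.1 and pandas 2.3.3 ran in Python 3.11.15, with plots by matplotlib 3.10.9. Promoters came from RefSeq for 7 of the 10 genes.

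The alternatives were no doublet removal, stricter gates, Leiden clusters, the mean of per-cell shares and a total without the 50 most abundant genes. Others were thinning to 2000 UMIs, pseudocounts of 1 and 50 CPM, the same mix of states in both libraries (states weighted alike) and no minimum of UMIs. A further 4 were chosen after seeing the data: without the barcodes in both libraries, without cells near a gate, without the top cell of each library, and neutrophil-like cells split by Retnlg.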

Additional observations from a re-analysis of the deposited data

Results flagged for a closer look

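In 8 pairs of classes the same gene differed in opposite directions between the libraries, past 1.5-fold in both classes. None of these differences was tested, since each library is 1 sample. Gdf15 was higher in E2 mast-like, cDC2-like, Arg1/Mmp12 and Apoe/Prtn3 cells and lower in E2 resident-like cells, so the log2 ratios lay apart by 1.85, 1.70, 2.18 and 2.001 in that order of classes. The resident-like value of -0.90 rests on 42 E2 and 12 placebo UMIs, 18 and 6 of them in 1 cell each, and the cDC2-like value on 1 E2 cell with 32 UMIs. Tgfbr1 was higher in E2 mast-like cells and lower in E2 neutrophil-like cells, 1.56 apart. Smad7 was higher in E2 mast-like cells and lower in E2 neutrophil-like cells (1.37 apart), in the Arg1/Mmp12 state (1.58 apart) and in non-classical monocyte-like cells (1.74 apart). Under the stricter gates the mast-like value of Smad7 did not keep its direction (43 and 14 UMIs), and that of Tgfbr1 did (34 and 5 UMIs). The 4 and 1 Gdf15 UMIs left there were too few to give a direction.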

How the results depend on the processing

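Across 12 alternatives, 398 recomputed ratios of 37 gene and class pairs gave 347 that stayed within counting error of the reported value, 49 that moved by more, and 2 that changed direction after being past 1.5-fold. Those 2 were mast-like cells under stricter gates, with a log2 ratio of -0.013 for Gdf15 and -0.39 for Smad7, where 50 E2 and 16 placebo cells remained. The Gdf15 value there came from 4 and 1 UMIs, under the minimum of 20, and cannot settle a direction. For Inhba in monocyte/macrophage-like cells the log2 ratio was -2.07 by the mean of per-cell shares, -1.94 without the 50 most abundant genes in the total, -2.34 thinned to 2000 UMIs, -2.63 and -0.80 with pseudocounts of 1 and 50 CPM, and -0.90 with states weighted alike. For Gdf3 there it was 1.25 thinned, 1.90 and 0.69 with the 2 pseudocounts, and 1.17 with states weighted alike. In the Arg1/Mmp12 state Inhba was -1.28 in Leiden clusters, -2.40 by per-cell shares, -3.14 thinned, -1.23 with 50 CPM and -2.11 without the top cell of each library, and Gdf3 was 3.15 and 1.01 with the 2 pseudocounts. Inhba in neutrophil-like cells was -1.19 with 50 CPM, and Gdf15 in mast-like cells 1.54 thinned. Of the 10 genes in monocyte/macrophage-like cells, the count higher past 1.5-fold was 1 when thinned, with 50 CPM and with states weighted alike, where Gdf15 was within the fold. The count lower was 1 under stricter gates, in Leiden clusters, with 50 CPM and with states weighted alike, where Smad7 was within it. Gdf15 in mast-like cells was also within 1.5-fold by per-cell shares. With 50 CPM added, Gdf15 in the Apoe/Prtn3 state (0.38), Gdf3 in classical monocyte-like cells (0.55) and Acvr1b in mast-like cells (-0.43) were within 1.5-fold. So were Gdf15 in the Arg1/Mmp12 state and Smad7 in neutrophil-like cells. Smad7 in the Arg1/Mmp12 state was within 1.5-fold in Leiden clusters (-0.41). No paired analysis was possible because each group is 1 library. Tgfbr1 and Acvr1b in monocyte/macrophage-like cells, within 1.5-fold throughout, had ratios on the other side of 0 when thinned (0.13 and 0.02). Genes under 20 UMIs over both libraries were not compared at this depth.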
